A study of Mus musculus with 12 samples.

Results

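Bone morphogenetic protein (BMP) ligands and the Id genes that answer to BMP signalling were followed through 4 groups of dissected structures of the embryonic mouse kidney. The genes are the ligands Bmp2, Bmp4 and Bmp7 and the targets Id1, Id2 and Id3. Every probe set (a group of array probes for 1 transcript) whose annotation named exactly 1 of these symbols was taken, whatever its value. This gave 9 probe sets of the 12422 on the array besides controls, for 6 genes of 8251. Bmp2 had 3 probe sets, Bmp4 had 2, and Bmp7, Id1, Id2 and Id3 had 1 each. All came from 12 arrays of Swiss Webster mouse kidneys, wild-type, of unknown sex and at E14.5, counted in embryonic days.

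The 4 groups had 3 arrays each. Single S-shaped bodies (replicates 3, 4 and 5) were each 1 unpooled structure, and pooled S-shaped bodies (replicates 1, 2 and 3) came from pools of 20. Renal vesicles (replicates 2, 3 and 4) also came from pools of 20. The collecting duct (replicates 1, 2 and 3) was unpooled and was the group the nephron structures were set against. The renal vesicle is the first epithelial vesicle of a nephron, which later bends into the S-shaped body. The collecting duct system is the branching tree that grows from the ureteric bud. The structures were cut out by hand on the basis of their shape, and the RNA of all groups passed through 2 rounds of T7 amplification. The labels say that a pool is a biological replicate but not which samples shared an embryo or litter, so the p-values cover the spread between these samples alone, which may be technical.

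BMP ligands are secreted dimers that bind a complex of type I and type II serine/threonine kinase receptors. The receptors phosphorylate Smad1, Smad5 and Smad9, which enter the nucleus with Smad4 and switch on targets, among them the Id genes and the inhibitory Smads. Id proteins have a helix-loop-helix domain but no basic DNA-binding region. They bind E proteins such as Tcf3, Tcf4 and Tcf12 and keep them off DNA. In the developing mouse kidney Bmp7 is known for keeping nephron progenitors alive, and Bmp4 for limiting where the ureteric bud grows out.

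The sequence just upstream of the start site was at hand for 3 of the 6 genes (RefSeq, build GRCm38.p6, 250 bases each): Bmp4 at chr14:46390670-46390919 on the minus strand, Id2 at chr12:25096093-25096342 on the minus strand, and Id3 at chr4:136143572-136143821 on the plus strand. All sequences at hand are shown, whatever the change of the gene. Id2 and Id3 were lower, and Bmp4 higher, in the renal vesicle than in the collecting duct. Id1, also lower there, had no sequence at hand. Capitals mark 2 short motifs known as Smad-binding elements, GGCGCC and GTCT, the second also read as AGAC on the other strand. No marked matches overlap.
Bmp4: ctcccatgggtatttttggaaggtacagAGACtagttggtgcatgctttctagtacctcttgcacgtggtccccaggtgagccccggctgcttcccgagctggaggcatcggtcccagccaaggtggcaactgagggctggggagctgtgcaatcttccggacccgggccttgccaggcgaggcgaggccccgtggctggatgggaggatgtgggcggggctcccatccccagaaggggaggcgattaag
Id2: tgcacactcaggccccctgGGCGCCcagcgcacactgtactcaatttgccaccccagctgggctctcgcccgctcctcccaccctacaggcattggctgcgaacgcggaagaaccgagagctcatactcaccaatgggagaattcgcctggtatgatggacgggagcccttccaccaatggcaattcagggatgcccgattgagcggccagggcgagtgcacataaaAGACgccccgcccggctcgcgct
Id3: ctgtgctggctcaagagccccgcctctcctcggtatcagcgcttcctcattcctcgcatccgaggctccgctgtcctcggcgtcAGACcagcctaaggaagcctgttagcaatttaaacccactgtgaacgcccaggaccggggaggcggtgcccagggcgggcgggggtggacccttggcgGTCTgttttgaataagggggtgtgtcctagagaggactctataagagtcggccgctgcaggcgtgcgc

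GGCGCC occurred once in the Id2 sequence and in neither of the others. GTCT or AGAC occurred once in Bmp4, once in Id2 and at 2 places in Id3. Among 32851 mouse promoter sequences of the same length, 9.59% held GGCGCC and 82.9% held GTCT or AGAC. A match describes these letters and is not a measured binding site.

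The arrays differed in overall brightness, which touches every value below. The mean deposited intensity was 21.5 to 70.6 on single S-shaped body arrays, 203 to 239 on pooled S-shaped body arrays, 108 to 131 on renal vesicle arrays and 273 to 363 on collecting duct arrays. Values are therefore given after quantile normalization, as log2 of the normalized intensity plus 7.22, on which scale a difference of 1 is a doubling of that sum. A probe set was above background on an array where its deposited intensity exceeded the distance by which the array's 5th percentile lay below 0. Between 48.3% and 54.4% of probe sets were above background on single S-shaped body arrays and 54.9% to 59.7% on the others. The actin probe ratio of 3′ end to middle is a sign of how far amplified RNA reached. It was 7.55 to 10.4 in single S-shaped bodies and 3.22 to 3.93 in pooled ones. In renal vesicles it was 7.89 to 9.02, and in collecting duct 6.29 to 10.5. The actin ratio of 3′ to 5′ end was 75.76 to 91.45 in single S-shaped bodies and 31.55 to 46.62 in pooled ones. It was 36.12 to 43.34 in renal vesicles and 27.68 to 89.42 in collecting duct. For Gapdh that ratio was 9.37 to 13.07 in single S-shaped bodies and 21.19 to 28.28 in pooled ones. It was 8.23 to 14.53 in renal vesicles and 8.97 to 11.97 in collecting duct. These ratios did not rank the groups alike. In samples of whole structures, fewer cells of a type and less RNA per cell cannot be told apart.

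Marker genes of the labelled structures were looked up, and no list was confined to its own group. Of 13 ureteric bud and collecting duct markers with a probe set, 9 were above background on every collecting duct array, with Krt7, Krt8, Krt18, Krt19 and Epcam among them, while Ret, Wnt11, Calb1 and Aqp2 were on none. Of 9 early nephron markers, 7 were above background on every renal vesicle array, including Wt1, Lhx1 and Pax8. Pax2 and Fgf8 were above it on none. Of 6 podocyte precursor markers, 5 were above background on every S-shaped body array, single or pooled, while Podxl was on none of the pooled ones. In other groups, 5 to 8 of the 13 duct markers were above background in renal vesicles, 4 to 8 in pooled and 3 to 5 in single S-shaped bodies. In collecting duct 4 to 5 of the 9 early nephron markers were, with Pax8 on every array. For the podocyte precursor markers it was 4 to 5 in renal vesicles and 2 to 3 in collecting duct.

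Id1, Id2 and Id3 were the genes of the set that moved together. All 3 were lower in renal vesicles than in collecting duct and lower again in pooled S-shaped bodies. With the arrays on their deposited scale, that second step lost its call for all 3. It turned to 0.34 for Id1 and 0.28 for Id3 (-0.60 and -0.66 relative to the shift of all probe sets). For Id2 it was -0.19 (adjusted p = 0.440, or -1.13 relative to the shift). Bmp4 took another course. It was highest in renal vesicles, by both of its probe sets, and fell in pooled S-shaped bodies. Bmp2 was called in no comparison by its brightest probe set, and Bmp7 was hardly measured.

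Id2 had the widest range of the 3 Id genes. Its level was 9.19, 10.23 and 8.15 in single S-shaped bodies, 8.68, 8.88 and 8.85 in pooled ones, 10.02, 9.99 and 9.81 in renal vesicles, and 11.65, 11.46 and 11.43 in collecting duct. No group overlapped another except that the single S-shaped bodies, which spread widely, reached across both the pooled ones and the renal vesicles. In renal vesicles against collecting duct the log2 change was -1.58 ± 0.12 (SE, 3 arrays each, adjusted p = 3.62e-06), which is 2.98-fold lower. In pooled S-shaped bodies it was 6.55-fold lower than in collecting duct (-2.71 ± 0.12, adjusted p = 5.58e-08). Pooled S-shaped bodies were also below renal vesicles (-1.14 ± 0.12, adjusted p = 4.13e-05).

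Id1 had levels of 7.64, 8.16 and 8.01 in single S-shaped bodies, 7.97, 7.30 and 8.16 in pooled ones, 8.51, 8.62 and 8.37 in renal vesicles, and 9.62, 9.54 and 9.65 in collecting duct. The 3 collecting duct arrays had an SD of 0.06 and lay above all other arrays. Renal vesicles fell by 1.10 ± 0.20 on the log2 scale against collecting duct (adjusted p = 0.0026), and pooled S-shaped bodies fell by 1.80 ± 0.20 (adjusted p = 5.00e-05). The step between pooled S-shaped bodies and renal vesicles was smaller (-0.69 ± 0.20, adjusted p = 0.0201). It rested on few arrays, since the adjusted p was 0.0545 without renal vesicle replicate 3 and 0.0515, with a change of -0.44, without pooled S-shaped body replicate 2. With no filter on dim probe sets it was 0.0540.

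Id3 showed the same order of group means as Id2 and Id1 for pooled S-shaped bodies, renal vesicles and collecting duct. Its level was 7.12, 8.04 and 7.51 in single S-shaped bodies, 7.26, 7.03 and 6.66 in pooled ones, 7.64, 7.98 and 7.76 in renal vesicles, and 8.56, 8.49 and 8.34 in collecting duct. Pooled S-shaped bodies, renal vesicles and collecting duct did not overlap, whereas 1 single S-shaped body lay above the renal vesicles. Pooled S-shaped bodies were below collecting duct by 2.79-fold (-1.48 ± 0.19, adjusted p = 0.00011) and below renal vesicles by 1.76-fold (-0.81 ± 0.19, adjusted p = 0.0058). The change in renal vesicles against collecting duct was -0.67 ± 0.19 (adjusted p = 0.0243). That call was lost, with an adjusted p of 0.0735, 0.0626, 0.0830 or 0.0698, when renal vesicle replicate 2 or 4, or collecting duct replicate 1 or 2, was left out. With all 12 arrays in 1 fit the adjusted p was 0.0755.

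Bmp4, a ligand made in the kidney mainly by mesenchyme, was measured by 2 probe sets. On 93456_r_at (its suffix marks probes picked under relaxed selection rules) the level was 6.76, 8.73 and 7.31 in single S-shaped bodies, 7.82, 8.26 and 9.02 in pooled ones, 10.23, 10.25 and 10.31 in renal vesicles, and 8.23, 8.14 and 8.04 in collecting duct. The renal vesicle arrays stood above all 9 others, while the other 3 groups overlapped. Renal vesicles exceeded collecting duct 4.37-fold (2.13 ± 0.24, adjusted p = 9.82e-05). Pooled S-shaped bodies were 3.72-fold below renal vesicles (-1.90 ± 0.24, adjusted p = 0.000169). Between pooled S-shaped bodies and collecting duct the change was 0.23 ± 0.24 (adjusted p = 0.493), with a 95% interval of -0.30 to 0.76. With the arrays left on their deposited scale, where the median of all probe sets shifted by -1.39 in renal vesicles against collecting duct, Bmp4 lost its call there (0.71, adjusted p = 0.0583). Relative to that shift the change was 2.10.

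On 93455_s_at (probes shared by several transcripts) Bmp4 had levels of 7.06, 7.39 and 5.46 in single S-shaped bodies, 6.25, 6.64 and 6.31 in pooled ones, 7.17, 7.53 and 7.57 in renal vesicles, and 5.64, 5.71 and 5.82 in collecting duct. Renal vesicles were again above pooled S-shaped bodies and collecting duct with no overlap. The change was 1.70 ± 0.20 in renal vesicles against collecting duct (adjusted p = 0.000141). Set against renal vesicles, pooled S-shaped bodies stood at -1.03 ± 0.20 (adjusted p = 0.0025). On the deposited scale the change in renal vesicles against collecting duct was 0.22 (adjusted p = 0.487), or 1.61 relative to the shift. The probe sets disagreed on pooled S-shaped bodies against collecting duct, where this one was called higher (0.68 ± 0.20, adjusted p = 0.0222). Without pooled S-shaped body replicate 2 that adjusted p was 0.0837, and without collecting duct replicate 1 or 2 it was 0.0664 or 0.0550. With all 12 arrays in 1 fit it was 0.224.

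**Figure D1:**
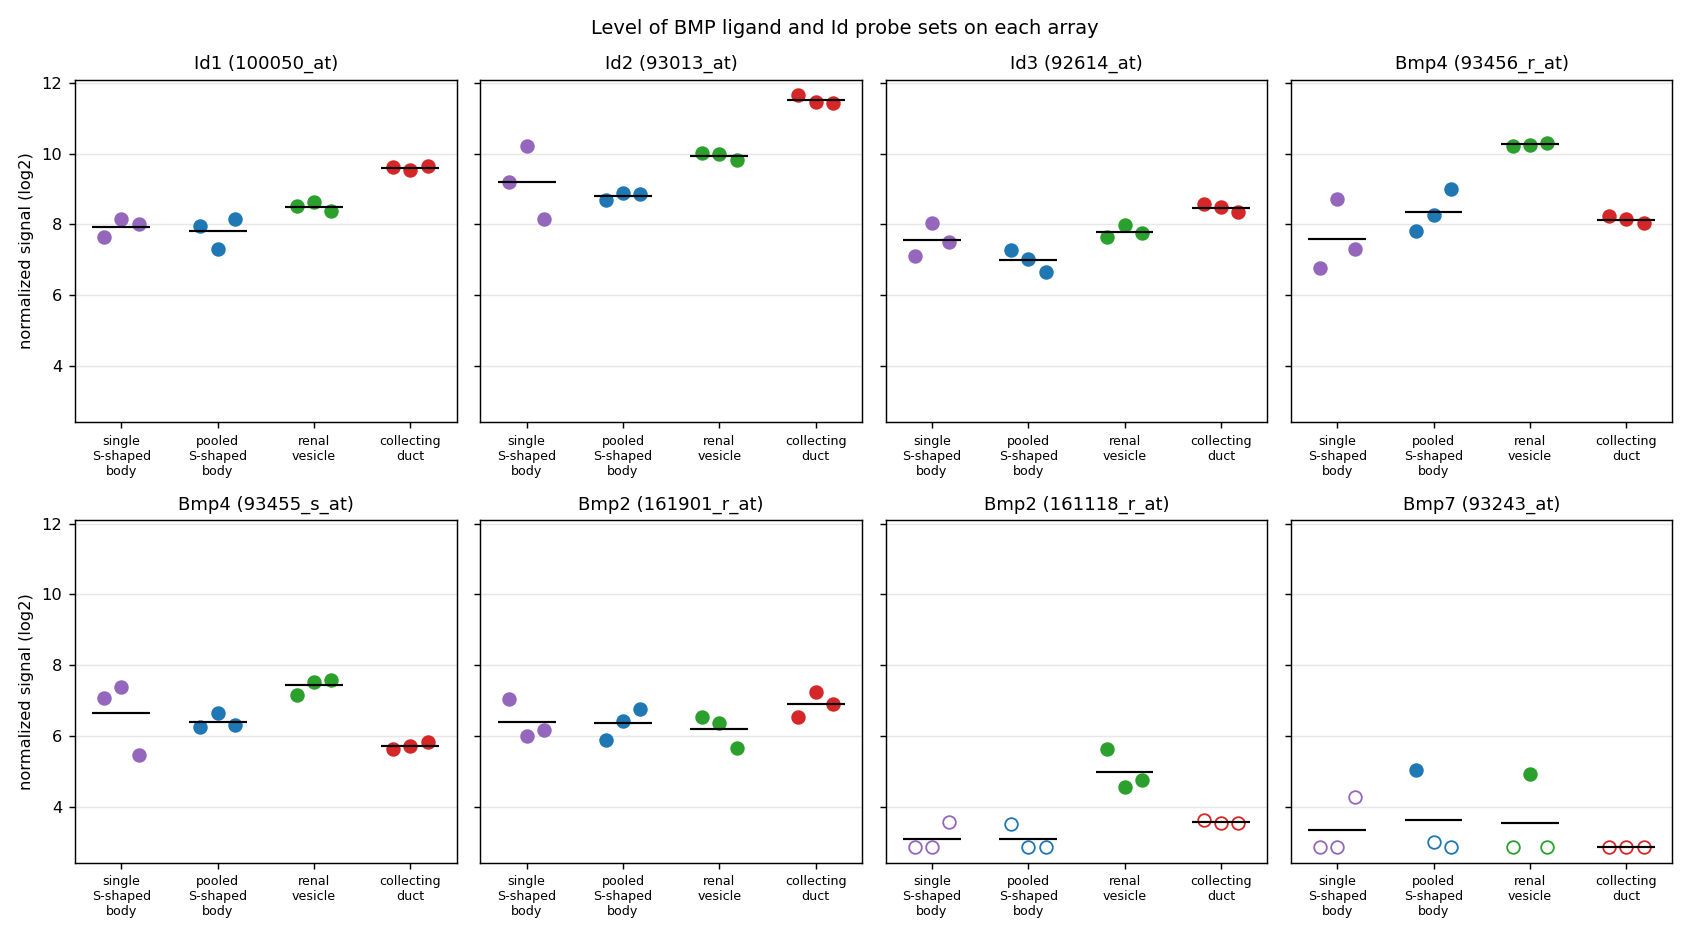
Normalized signal (log2, vertical axis) of 8 probe sets on each of 12 arrays, by group, with a bar at the group mean; open circles are arrays on which the probe set was not above background. Id1, Id2 and Id3 are highest in collecting duct, both Bmp4 probe sets are highest on average in renal vesicles, and Bmp7 is above background on 2 arrays.

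Bmp2, a ligand of the same subfamily as Bmp4, was above background on all 12 arrays by 161901_r_at. Its level was 7.03, 6.0 and 6.16 in single S-shaped bodies, 5.89, 6.42 and 6.76 in pooled ones, 6.53, 6.36 and 5.65 in renal vesicles, and 6.52, 7.24 and 6.90 in collecting duct. The 4 groups overlapped in all 6 comparisons, and none was called. The lowest adjusted p was 0.124, for renal vesicles against collecting duct (-0.70 ± 0.31, 95% interval -1.39 to -0.02). A second Bmp2 probe set, 161118_r_at, was above background only on the 3 renal vesicle arrays, at 5.64, 4.55 and 4.74, and by a small margin on 2 of them. By group means, it gave renal vesicles at least 1.21-fold higher than collecting duct (adjusted p = 0.0134) and pooled S-shaped bodies at least 1.24-fold lower than renal vesicles (adjusted p = 0.0015). These bounds set the group's mean against the dimmest signals that counted as above background. Those signals were 4.57, 4.74 and 4.79 on the collecting duct arrays. Only renal vesicle replicate 2 exceeded them all, so the first bound rests on that array. The last Bmp2 probe set, 102559_at, was above background on no array and was not tested. Between renal vesicles and collecting duct the 2 tested Bmp2 probe sets had changes of opposite sign. On the deposited scale 161118_r_at lost its call there (0.54, adjusted p = 0.262, or 1.93 relative to the shift of all probe sets).

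Bmp7 is the ligand most studied in nephron progenitors, yet its probe set 93243_at was above background on 2 arrays only, pooled S-shaped body replicate 1 and renal vesicle replicate 3. The deposited intensities there were 32.9 and 16.6. On the collecting duct arrays they were -188, -171 and -87.9. Its mean over the 12 arrays lay at the 21.8 percentile of all probe sets, under the limit for testing in every comparison except single against pooled S-shaped bodies (adjusted p = 0.851). The level of Bmp7 was not detectable with this probe set, which does not show that the gene was silent.

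Counted by gene, with the brightest probe set standing for each, 5 of the 6 genes could be tested in renal vesicles against collecting duct. Of these, 1 was higher (Bmp4) and 3 were lower (Id1, Id2 and Id3). Over all 6746 genes tested in that comparison, 13.3% were higher and 12.2% lower. In pooled S-shaped bodies against collecting duct 3 of 5 were lower, the Id genes, and none higher, beside 21.1% lower and 18.8% higher over all genes. In pooled S-shaped bodies against renal vesicles 4 of 5 were lower, the Id genes and Bmp4, and none higher, beside 20.2% lower and 18.1% higher. The median change of the 3 Id genes in these comparisons was -1.10, -1.80 and -0.81, while that of all genes was -0.01, -0.08 and -0.04. Each pair of comparisons shares 1 group's arrays, so they are not independent of each other.

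The single S-shaped bodies were set against the other groups in fits of their own. Against collecting duct, 3 of 5 genes were lower, again the Id genes, and none higher, beside 18.9% lower and 16.1% higher of all genes. Id2 changed by -2.32 ± 0.43 (adjusted p = 0.0040), Id1 by -1.67 ± 0.18 (adjusted p = 0.000279) and Id3 by -0.90 ± 0.25 (adjusted p = 0.0248). The Id3 call was lost without any 1 of the collecting duct replicates (adjusted p of 0.0960, 0.0801 and 0.0622) or without single S-shaped body replicate 5 (0.0600), and also with no filter on dim probe sets (0.0677) or no mean-variance trend (0.0516). The Bmp4 probe sets pointed opposite ways here, at -0.53 ± 0.44 for 93456_r_at (adjusted p = 0.394) and 0.91 ± 0.48 for 93455_s_at (adjusted p = 0.182). Without single S-shaped body replicate 4 the first became -1.10 (adjusted p = 0.0131), and without replicate 5 the second became 1.5 (adjusted p = 0.0068).

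Against renal vesicles, Bmp4 by 93456_r_at was the only 1 of 5 genes called, and it was 6.32-fold lower in single S-shaped bodies (-2.66 ± 0.42, adjusted p = 0.0023). Of all genes, 15.6% were lower and 12.2% higher. Its other probe set changed by -0.79 ± 0.47 (adjusted p = 0.249). The Id genes stood at -0.57 for Id1 (adjusted p = 0.0843), -0.75 for Id2 (adjusted p = 0.229) and -0.24 for Id3 (adjusted p = 0.579). Replicate 4 was the single S-shaped body with the highest levels of Id1, Id2, Id3 and Bmp4, and without it Id2 was called lower (-1.27, adjusted p = 0.0204). The dim Bmp2 probe set 161118_r_at, above background on no single S-shaped body array, was called lower too (adjusted p = 0.0173), though not without renal vesicle replicate 2 (0.0778).

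Between single and pooled S-shaped bodies, limma called 0 of 6 genes, and 0 had an unadjusted p under 0.05. Of all genes 0.208% were higher and 0.119% lower. The 95% intervals were wide, from -0.63 to 1.40 for Id2, from -0.10 to 1.25 for Id3, from -0.49 to 0.74 for Id1 and from -1.92 to 0.39 for Bmp4 by 93456_r_at. The SD of Id2 was 1.04 over the single S-shaped bodies and 0.11 over the pooled ones.

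**Figure D2:**
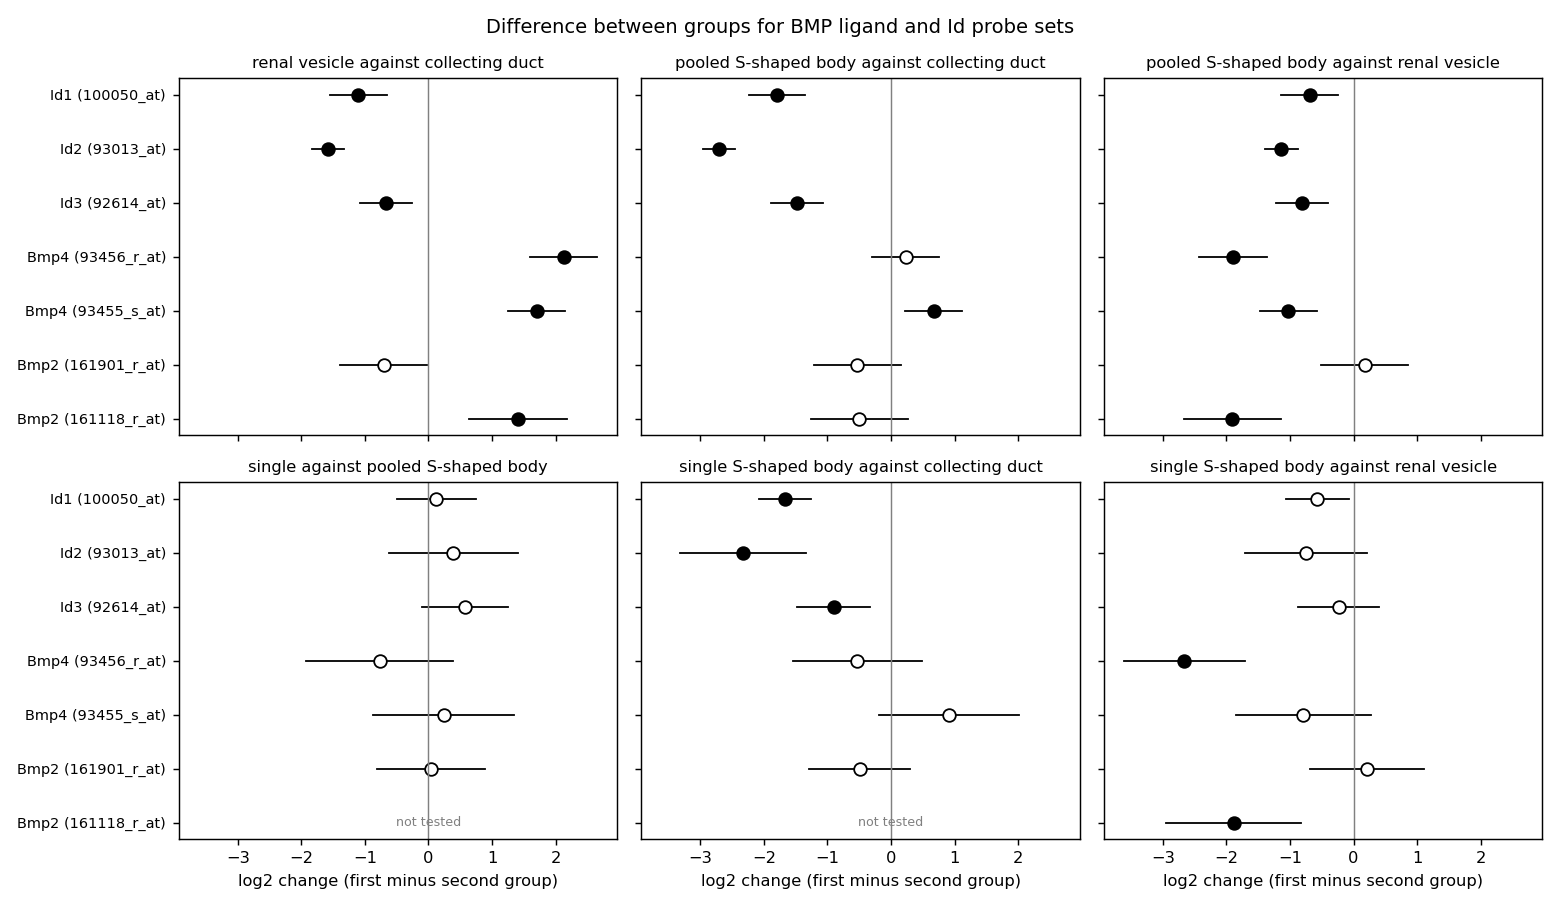
Log2 change (first minus second group, horizontal axis) of 7 probe sets in 6 comparisons, with 95% intervals from the fit; filled points were called at an adjusted p under 0.05. Id1, Id2 and Id3 lie left of 0 in all 5 comparisons other than single against pooled S-shaped bodies, and both Bmp4 probe sets lie furthest right for renal vesicles against collecting duct. The points of 161118_r_at depend on the added 7.22 because it was above background only in renal vesicles.

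Other genes of the pathway were taken from lists by role. Among 7 other BMP and GDF ligands tested, Gdf3, a ligand of early embryonic cells, was the one called in renal vesicles against collecting duct. Its level was 8.72, 8.51 and 8.05 in single S-shaped bodies, 3.37, 3.78 and 5.14 in pooled ones, 7.62, 7.27 and 6.89 in renal vesicles, and at the floor of 2.85 on all collecting duct arrays. Gdf3 was at least 5.89-fold higher in renal vesicles than in collecting duct (adjusted p = 2.39e-05) and at least 13.2-fold higher in single S-shaped bodies than in collecting duct (adjusted p = 1.02e-05). Single S-shaped bodies were also above pooled ones (4.33 ± 0.47, adjusted p = 0.0235) of the same structure. A second Gdf3 probe set was above background on no array, so these values rest on 1 probe set. Bmp8a was at least 2.17-fold higher in single S-shaped bodies than in collecting duct (adjusted p = 0.0276).

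Of 6 receptor genes tested, Acvr2a, a type II receptor shared with activin, was lower than in collecting duct both in renal vesicles (-1.60 ± 0.18, adjusted p = 8.12e-05) and in pooled S-shaped bodies (-1.74, adjusted p = 2.44e-05). Its dimmer probe set was lower in renal vesicles too (-1.62 ± 0.47, adjusted p = 0.0281) but missed the threshold in pooled S-shaped bodies (-1.09 ± 0.47, adjusted p = 0.0903). Acvr2b, the related type II receptor, ran the other way against collecting duct, at 0.75 ± 0.22 in renal vesicles (adjusted p = 0.0279) and 1.29 ± 0.22 in pooled S-shaped bodies (adjusted p = 0.000742). Bmpr1a, a type I receptor for Bmp2 and Bmp4, was lower in pooled S-shaped bodies than in collecting duct (-0.84 ± 0.21, adjusted p = 0.0097) and than in renal vesicles (-0.89 ± 0.21, adjusted p = 0.0072). Between renal vesicles and collecting duct it stood at 0.05 ± 0.21 (adjusted p = 0.891). Bmpr2, the type II receptor for BMPs, was called higher in pooled S-shaped bodies than in collecting duct (2.16 ± 0.75, adjusted p = 0.0421), with levels from 7.05 to 9.12 in pooled S-shaped bodies, against 5.01 to 6.37 in collecting duct. Acvrl1, a type I receptor of endothelial cells, was higher in pooled S-shaped bodies than in renal vesicles (1.08 ± 0.30, adjusted p = 0.0159). Its 2 dimmer probe sets were above background on no renal vesicle array and are given no fold.

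The inhibitory Smad7, itself a target of BMP signalling, followed the Id genes. Its level was 5.94, 6.33 and 5.51 in single S-shaped bodies, 5.96, 5.77 and 5.78 in pooled ones, 6.93, 6.55 and 6.61 in renal vesicles, and 8.11, 7.83 and 8.0 in collecting duct. No array of another group reached the collecting duct arrays. The change was -1.28 ± 0.19 in renal vesicles against collecting duct (adjusted p = 0.000587) and -2.14 ± 0.19 in pooled S-shaped bodies (adjusted p = 7.45e-06). For Smad7 in pooled S-shaped bodies against renal vesicles the change was -0.86 ± 0.19 (adjusted p = 0.0041). Of 5 Smads tested, 2 were lower and none higher in renal vesicles against collecting duct, beside 12.2% lower and 13.3% higher over all genes. For pooled S-shaped bodies set against the duct, 3 were lower and none higher, beside 21.1% lower and 18.8% higher over all genes. Smad1, which carries the BMP signal, was called in renal vesicles at -0.54 ± 0.15 (adjusted p = 0.0261), though not by its dimmer probe set (-0.39 ± 0.19, adjusted p = 0.155). The other calls against collecting duct were made in pooled S-shaped bodies, for Smad4 at -0.59 ± 0.16 (adjusted p = 0.0112) and the inhibitory Smad6 at -0.66 ± 0.22 (adjusted p = 0.0344). In pooled S-shaped bodies against renal vesicles 2 of the 5 were lower and 1 higher, beside 20.2% lower and 18.1% higher over all genes. Smad1 was higher there by its dimmer probe set (0.80 ± 0.19, adjusted p = 0.0062).

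Of 5 extracellular modulators tested against collecting duct, Twsg1, which binds BMPs together with chordin, was lower in renal vesicles (-0.39 ± 0.12, adjusted p = 0.0336) and in pooled S-shaped bodies (-1.78 ± 0.12, adjusted p = 1.12e-06). Fstl1, a follistatin-like secreted protein, was lower in pooled S-shaped bodies than in renal vesicles (-1.35 ± 0.28, adjusted p = 0.0031). The antagonists Chrd, Grem1, Fst and Nbl1 were too dim to test there, and Nog was tested without a call. Among the proteases that cut BMP precursors, Furin was lower in renal vesicles (-1.20 ± 0.15, adjusted p = 0.000218) and in pooled S-shaped bodies (-0.94 ± 0.15, adjusted p = 0.000602) than in collecting duct. Pcsk5 was higher in pooled S-shaped bodies than in collecting duct (1.04 ± 0.24, adjusted p = 0.0056).

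Not every BMP-responsive gene followed the Id genes. Hey1, a transcriptional repressor that Notch also induces, was higher than in collecting duct both in renal vesicles (5.88 ± 0.32, adjusted p = 4.76e-07) and in pooled S-shaped bodies (4.52 ± 0.32, adjusted p = 1.86e-06), with 1 collecting duct array of 3 above background. Msx1, a homeobox gene, was higher in pooled S-shaped bodies than in collecting duct (1.31 ± 0.20, adjusted p = 0.000424) and than in renal vesicles (1.25 ± 0.20, adjusted p = 0.00071). Id4, the Id gene outside the set, was not called in any comparison, and stood at 0.33 ± 0.44 in renal vesicles against collecting duct (adjusted p = 0.634). Tcf4, an E protein that Id proteins bind, ran opposite to them. Its level was 9.11, 9.83 and 9.92 in single S-shaped bodies, 9.51, 9.31 and 9.71 in pooled ones, 9.11, 8.66 and 8.82 in renal vesicles, and 7.12, 7.62 and 7.46 in collecting duct. The change was 1.46 ± 0.18 in renal vesicles against collecting duct (adjusted p = 0.00019), 2.11 ± 0.18 in pooled S-shaped bodies against collecting duct (adjusted p = 7.00e-06), and 0.65 ± 0.18 in pooled S-shaped bodies against renal vesicles (adjusted p = 0.0160). Tcf12, another E protein, was at 0.20 ± 0.18 in renal vesicles against collecting duct (adjusted p = 0.486).

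**Figure D3:**
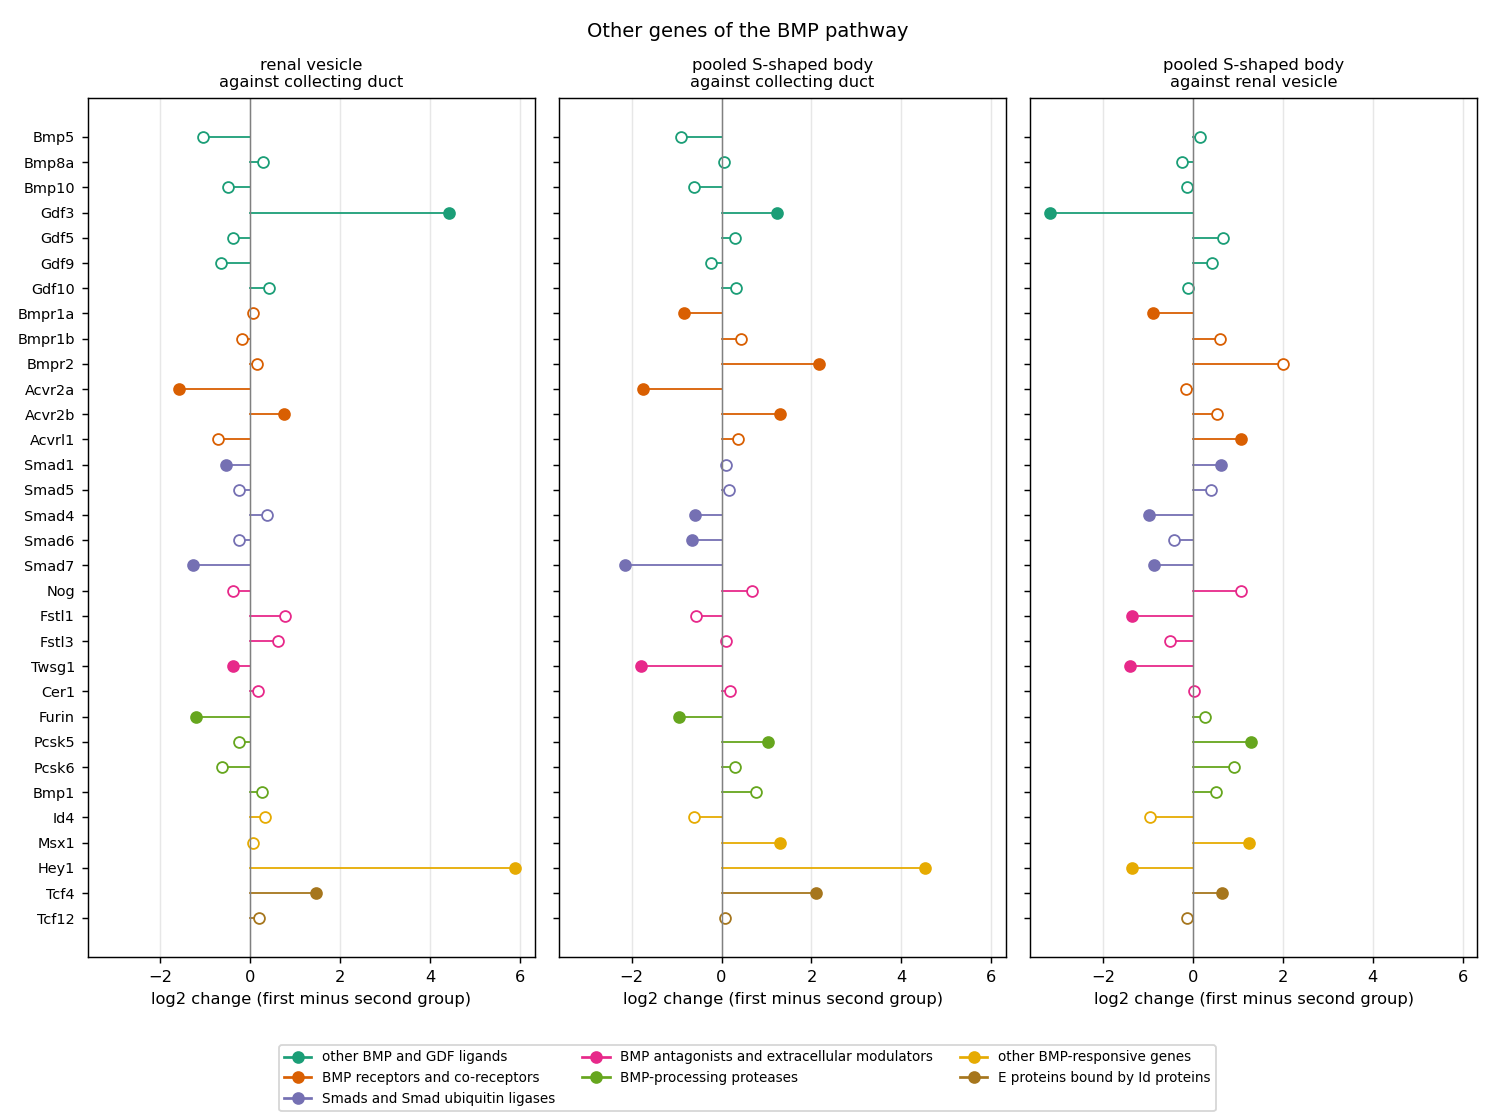
Log2 change (first minus second group, horizontal axis) of other genes of the BMP pathway in 3 comparisons, coloured by list; filled points were called. Smad7 lies left of 0 and Tcf4 right of 0 in all 3 comparisons. Hey1 and Gdf3 have the longest lines for renal vesicles against collecting duct, and the Gdf3 points against collecting duct are not a measured fold, since Gdf3 was at the floor there.

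Markers of other cell types also differed between groups, though not all in the same order. The summed normalized intensity of 12 endothelium markers was 7273 to 9762 in single S-shaped bodies, 7730 to 9408 in pooled S-shaped bodies, 1533 to 3242 in renal vesicles and 87.3 to 172 in collecting duct. Pecam1, Cdh5, Kdr and Tek were above background on no collecting duct array. The sum of 12 stroma markers was 6407 to 7990 in single S-shaped bodies, 4682 to 6445 in pooled S-shaped bodies, 408 to 1896 in renal vesicles and 354 to 477 in collecting duct. All 12 endothelium markers and 10 of 12 stroma markers were called higher in pooled S-shaped bodies than in collecting duct, beside 18.8% of all genes. In renal vesicles against collecting duct 5 of 12 endothelium markers were higher and 1 lower. For stroma markers it was 7 of 12 higher and 1 lower, beside 13.3% higher and 12.2% lower over all genes. The sum of the 3 Id genes was 702 to 1730 in single S-shaped bodies, 737 to 828 in pooled S-shaped bodies, 1425 to 1643 in renal vesicles and 3864 to 4369 in collecting duct, so that it was highest where the endothelium sum was lowest. Red blood cell markers summed to 1153 to 4668 in single S-shaped bodies, 5207 to 6925 in pooled S-shaped bodies, 99.0 to 807 in renal vesicles and 124 to 177 in collecting duct. The 7 macrophage and leukocyte markers summed to 202 to 441 in single S-shaped bodies, 370 to 412 in pooled S-shaped bodies, 68.3 to 161 in renal vesicles and 329 to 467 in collecting duct.

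Immediate early and heat shock genes, known to respond to stress of the cell, also separated the collecting duct. The sum of 24 such genes was 7736 to 9817 in single S-shaped bodies, 8774 to 9129 in pooled S-shaped bodies, 10416 to 13099 in renal vesicles and 21360 to 26055 in collecting duct. Of 22 tested, 16 were lower and 1 higher in renal vesicles than in collecting duct, beside 12.2% and 13.3% of all genes. Their median change was -2.19, while that of all genes was -0.01. In pooled S-shaped bodies, 16 were lower and 0 higher than in collecting duct, beside 21.1% and 18.8% of all genes. The median change there was -1.95, while that of all genes was -0.08. The part that these lists play in the levels of the Id genes and Bmp4 was not tested.

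**Figure D4:**
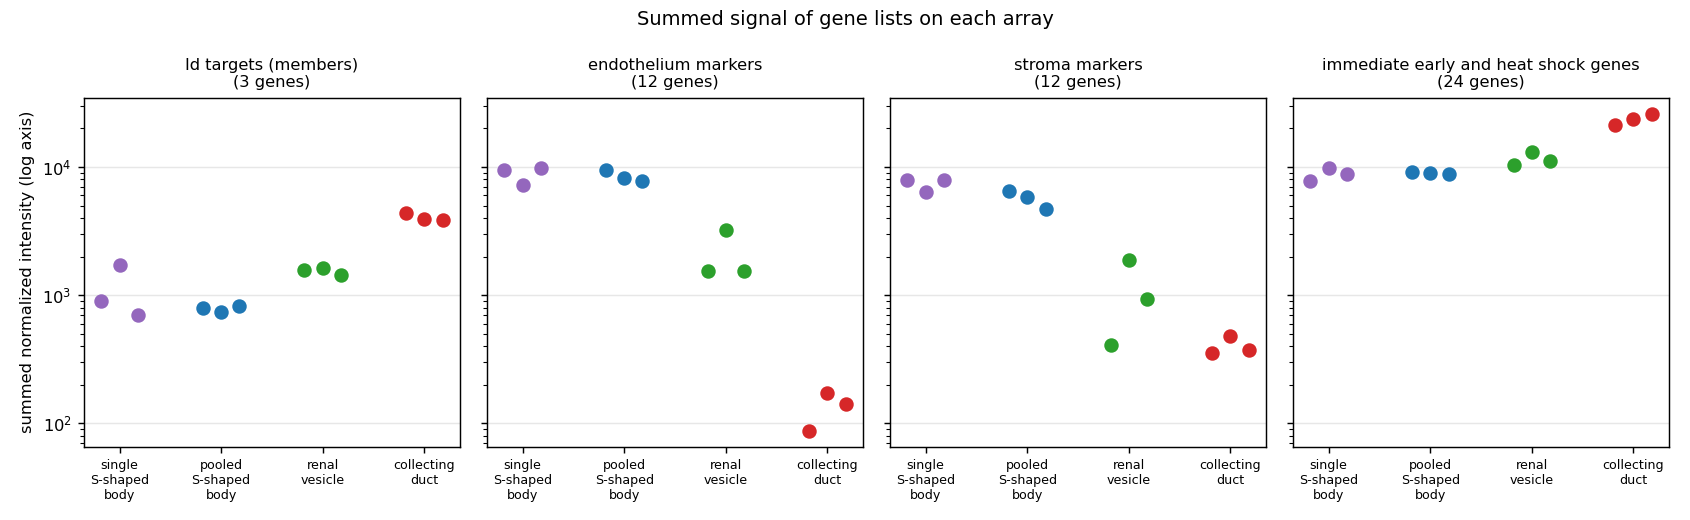
Summed normalized intensity (log axis) of the 3 Id genes and of 3 other gene lists on each array, by group. The Id genes and the immediate early and heat shock genes are highest on the 3 collecting duct arrays, where the endothelium markers are lowest.

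The genes whose log2 levels ran most like each of these genes over the 12 arrays were looked up among those passing the filter on low values. Smad7 was nearest to Id2 (Pearson r = 0.968), followed by Prss8 (0.964), a protease of epithelial surfaces, and Bex4 (0.959). For Id1 they were Tor3a (0.966), Bex1 (0.955) and Fem1b (0.952). For Id3 they were Hadh (0.939), Ctnna1 (0.937) and Tcp11 (0.922). Bmp4 ran most like Pax8 (0.978), a transcription factor of the early nephron, then Cdc23 (0.961) and Ddx1 (0.953). Pax8 stood at 2.85, 5.85 and 4.80 in single S-shaped bodies, 4.95, 5.70 and 6.08 in pooled ones, 8.30, 8.44 and 8.23 in renal vesicles, and 5.22, 5.29 and 5.60 in collecting duct. Bmp2 was nearest to Rbm38 (0.921). Bmp7 did not pass the filter.

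Among the Id genes, r over the 12 arrays was 0.893 for Id1 and Id2, 0.876 for Id2 and Id3, and 0.849 for Id1 and Id3. Once each group's mean was taken out, these were 0.12, 0.42 and 0.25, so that most of the likeness lay in the difference between groups. Bmp4 had r of 0.13, 0.16 and 0.12 with Id1, Id2 and Id3 over the 12 arrays, and 0.51, 0.63 and 0.42 within groups. In single S-shaped bodies the SD was 1.02 for Bmp4 and 1.04 for Id2. In the other groups it was 0.04 to 0.60 and 0.11 to 0.12. The within-group r of Bmp4 and Id2 therefore rests mostly on the single S-shaped bodies. All these values share the same 12 arrays, their groups and their normalization, and they describe these arrays only.

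**Figure D5:**
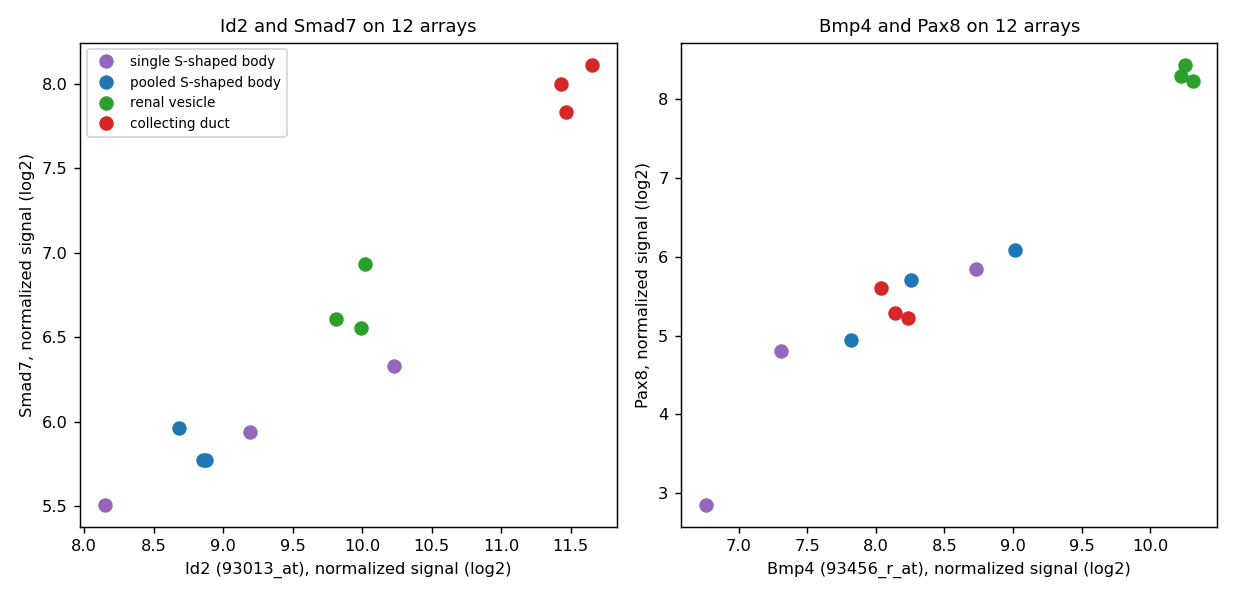
Normalized signal (log2) of Smad7 against Id2 and of Pax8 against Bmp4 (93456_r_at), 1 point per array, coloured by group. On the left the collecting duct arrays lie apart at the top right, and on the right the renal vesicle arrays do.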

How the data were processed

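TRIzol was used to extract total RNA, which was amplified in 2 rounds, labelled with biotin and hybridized to Affymetrix MG_U74Av2 arrays, per the labels' protocols. The deposited table holds 1 intensity per probe set and array on a linear scale, with negative values; the submitters' processing notes name GCOS, while how probes were summarised and scaled is not given in the sources used here. The 12422 probe sets besides 66 controls were quantile normalized over the 12 arrays, floored at 0, raised by 7.22 (25% of the median value, 28.9) and turned into log2. Each fit dropped probe sets whose mean over its arrays was below the 25th percentile. limma 3.58.1 in R 4.3.3 (lmFit, eBayes with trend) gave two-sided p-values, adjusted by Benjamini-Hochberg over 9316 probe sets in each of 6 comparisons; a call is an adjusted p under 0.05. Renal vesicle, pooled S-shaped body and collecting duct shared a fit of 9 arrays, and each comparison with single S-shaped bodies had a fit of 6. Folds are on the log2(value + 7.22) scale and understate the change of dim genes; the number of arrays limits the precision. The platform annotation gave 1 symbol for 10833 probe sets, several for 396 and none for 1193. A gene's probe set with the highest mean over all arrays stands for it. Where a group had no array above background, the text gives a bound or no fold.

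All probe sets of the 6 genes are named, with up to 3 called genes per list, comparison and direction with the largest changes and the 3 genes most like each gene; of these, the values that bear on the pathway are given, and Id4, Tcf12, Nog and the dim antagonists were named after their values were seen. The genes and lists were chosen with earlier results of these data known, and the immediate early list was added later. No 2 arrays held identical values. Fits were tested on simulated data. Alternatives were other pseudocounts, scalings, filters and fits, the replicate number as a block, and leaving out each array. Promoter sequences are from RefSeq (GRCm38.p6).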

Additional observations from a re-analysis of the deposited data

How the results depend on the processing

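Of the results for single probe sets, 530 kept direction and side of the threshold under the alternatives, 28 lost a call, 14 gained one and 21 changed sign. Of these, 11 came from the arrays' deposited scale and 10, with no call either way, from leaving out 1 array. On the deposited scale the median of all probe sets shifted by -1.39 in renal vesicles against collecting duct, by -0.46 and 0.94 in pooled S-shaped bodies against collecting duct and against renal vesicles, and -2.20, -2.56 and -1.06 in single S-shaped bodies against pooled ones, collecting duct and renal vesicles. The values after a sign change there, each with its value relative to the shift, were 0.34 and -0.60 for Id1, 0.28 and -0.66 for Id3 and 0.081 and -0.86 for Bmp4 93455_s_at in pooled S-shaped bodies against renal vesicles, and -0.23 and 0.23 for Bmp4 93456_r_at in pooled S-shaped bodies against collecting duct. For single against pooled S-shaped bodies they were -2.34 and -0.15 for Bmp2 161901_r_at, -2.19 and 0.0086 for Bmp4 93455_s_at, -2.48 and -0.29 for Id1, -2.24 and -0.04 for Id2, and -1.96 and 0.24 for Id3. For single S-shaped bodies they were -1.89 and 0.67 for Bmp4 93455_s_at against collecting duct, and -1.06 and -0.0038 for Bmp2 161901_r_at against renal vesicles.

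With 1 array left out, Bmp2 161901_r_at ran from -0.090 to 0.41 in pooled and -0.10 to 0.41 in single S-shaped bodies against renal vesicles. Bmp4 93456_r_at ran from -0.096 to 0.50 in pooled S-shaped bodies against collecting duct. In single against pooled S-shaped bodies, Bmp2 161901_r_at ran from -0.28 to 0.24, Bmp4 93455_s_at from -0.14 to 0.83, Id1 from -0.13 to 0.30 and Id2 from -0.13 to 0.91.

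On the deposited scale 7268 probe sets were called in renal vesicles against collecting duct, 3.23% of them higher (2225 and 51.4% as reported), 5432 in pooled S-shaped bodies against renal vesicles, 93.9% higher (3423 and 47.7%), and 8345 in single against pooled S-shaped bodies, 0.252% higher (37 and 62.2%). Single S-shaped bodies gave 8299 calls against collecting duct, 2.40% higher (3152 and 47.2%), and 4349 against renal vesicles, 4.99% higher (2525 and 46.2%). In pooled S-shaped bodies against collecting duct 24.7% of calls were higher (47.7%). Calls among the 6 genes on that scale were 4 lower in renal vesicles against collecting duct in place of 1 higher and 3 lower (Bmp4 lost, Bmp2 gained at -2.25), 4 in place of 3 in pooled S-shaped bodies against collecting duct (Bmp2 gained), 2 (1 higher, 1 lower) in place of 4 in pooled S-shaped bodies against renal vesicles, 5 in place of 0 for single against pooled S-shaped bodies, and for single ones 5 in place of 3 against collecting duct and 4 in place of 1 against renal vesicles.

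Single against pooled S-shaped bodies gave 146 calls with scaling to the 75th percentile (78.1% higher), 19 with a filter at the 50th percentile, 424 with all 12 arrays in 1 fit, and 1 to 72 with 1 array left out, none among the 6 genes. Single S-shaped bodies against renal vesicles gave 1539 to 2344 calls with 1 array left out. There, 2 of the 6 genes were called with scaling to the 75th percentile (Id1, adjusted p = 0.0421) and 1 to 2 with 1 array left out. The causes were not tested.

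Same-numbered samples showed no sign of deviating together from their group means (r of -0.08 to 0.04 over 7 pairs). Samples with different numbers had r of -0.13 to 0.11 over 20 pairs. With so few arrays per group, this check cannot decide whether the numbers pair the samples. Single S-shaped bodies were not part of it. With the replicate block, 1383 probe sets were called in renal vesicles against collecting duct. Id3 lost its call there (-0.56, adjusted p = 0.155), as did Bmp4 93455_s_at in pooled S-shaped bodies against collecting duct (adjusted p = 0.0508). Between single S-shaped bodies and renal vesicles, a block chosen after seeing the data gave 1113 calls and ended that of Bmp2 161118_r_at (adjusted p = 0.0996). No paired analysis was possible for single S-shaped bodies against the others because fewer than 2 numbers are shared.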
